A study of Rattus norvegicus with 10 samples.

Results

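The stearoyl-CoA desaturase gene cluster is a run of 4 neighbouring genes in a 204596 bp interval of rat chromosome 1 (Rnor_6.0, about 263.97 to 264.17 Mb). Its members were taken by position, with at least 15 fragments summed over all libraries, and they are the 4 genes annotated in the interval, of 32623 genes in the count table. The cluster was chosen with the difference between control and dehydrated kidneys known, so its differences between the groups are given as a description, with no test. The libraries came from whole kidney of male Sprague-Dawley rats, an outbred strain, as polyadenylated RNA with 1 library per animal. The 5 control rats drank freely and the 5 dehydrated rats had been without water for 72 hours. No genetic change, age or food intake is given for either group. The stated aim was to find genes of osmoregulation.

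Stearoyl-CoA desaturases are enzymes of the endoplasmic reticulum that place the first double bond in saturated fatty acids, turning stearoyl-CoA into oleoyl-CoA and palmitoyl-CoA into palmitoleoyl-CoA. Their products are main building blocks of triglycerides, membrane phospholipids and cholesteryl esters. In rodents several desaturase genes lie side by side, differ in the tissues that use them, and include Scd, known in liver for its strong response to diet, insulin and the lipogenic transcription factors SREBP and LXR.

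Along the chromosome, the first gene (plus strand) ends at position 264004008 and spans 35875 bp, with 3600 bp of exons in 6 annotated exon ranges. The second, ENSRNOG00000046005 (chr1:264059374-264072433, plus strand), spans 13060 bp and has 5046 bp of exons in 6 ranges, the longest of 3825 bp. The third gene (chr1:264094080-264105344, plus strand) spans 11265 bp, with only 1127 bp of exons in 9 ranges. The longest range is 282 bp there and 2498 bp in the first gene. The last, ENSRNOG00000013552 (minus strand), is Scd, which lies from position 264160129 upwards and spans 12601 bp, with 4475 bp of exons in 6 ranges, the longest of 3550 bp. The genes do not overlap: 55365, 21646 and 54784 bp separate them in turn, and Scd alone is read in the opposite direction.

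The names of the other members are not paired with their identifiers in the tables used here. RefSeq's table for a later assembly, GRCr8, lists 4 protein-coding genes of the Scd name side by side on chromosome 1, in the order Scd3, Scd2, Scd4 and Scd, with a non-coding gene named Scd-ps1 between Scd3 and Scd2. RefSeq's Scd2 spans 13060 bp, as many as ENSRNOG00000046005 on Rnor_6.0, while Scd3 spans 35610 bp and Scd4 12698 bp. Order and span do not establish a name, and the 3 members are called here the first, the second and the third gene.

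The sequences directly before the starts of these RefSeq genes are shown because the genes lie side by side with Scd. The 250 bases upstream are printed for the 3 other protein-coding genes, 5′ to 3′ on the gene's strand, with the letters CCAAT or their reverse complement in capitals. CCAAT is the core of the box bound by the factor NF-Y.
Scd3, GRCr8, chr1:253027803-253028052, plus strand: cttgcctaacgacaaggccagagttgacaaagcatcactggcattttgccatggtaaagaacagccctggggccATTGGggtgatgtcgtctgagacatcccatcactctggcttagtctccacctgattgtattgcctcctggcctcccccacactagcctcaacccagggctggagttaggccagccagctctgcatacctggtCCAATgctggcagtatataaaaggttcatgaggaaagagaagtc
Scd2, GRCr8, chr1:253118127-253118376, plus strand: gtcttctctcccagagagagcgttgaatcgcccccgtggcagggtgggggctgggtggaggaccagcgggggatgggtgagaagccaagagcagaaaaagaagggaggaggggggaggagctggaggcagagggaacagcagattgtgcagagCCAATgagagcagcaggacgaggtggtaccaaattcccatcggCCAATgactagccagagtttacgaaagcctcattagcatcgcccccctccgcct
Scd4, GRCr8, chr1:253152269-253152518, plus strand: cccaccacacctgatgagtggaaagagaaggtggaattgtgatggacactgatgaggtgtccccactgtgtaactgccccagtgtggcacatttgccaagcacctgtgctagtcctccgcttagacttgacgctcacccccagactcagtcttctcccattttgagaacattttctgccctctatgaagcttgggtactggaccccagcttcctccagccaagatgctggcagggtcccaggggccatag
On either strand CCAAT matched at 2 places before Scd3 and at 2 before Scd2, against 0 before Scd4. It matched at 1 place before the non-coding Scd-ps1, whose window is not printed. At least 1 such match was held by 34% of all 33469 RefSeq windows of this length, and the share with 2 was not counted. The letters TATAAA, the core of the TATA box, occurred once, before Scd3, and in 12.9% of all windows. The letters TCACNCCAC, a form of the sterol regulatory element, were not in any of these windows and were held by 0.974% of all. None of the 3 motifs shares letters with another where it matched. A match describes these letters only. The corresponding window of Scd lies within the span RefSeq gives the gene and is not printed.

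Scd was the gene with the deepest difference. Its level in CPM, the count relative to all fragments of tested genes in the library after TMM scaling, was 243, 99.7, 251, 74.7 and 267 in control replicates 2, 3, 4, 5 and 6. In dehydrated replicates 1, 2, 4, 5 and 6 it was 2.19, 1.51, 2.49, 5.18 and 5.67. The groups did not overlap, and the lowest control kidney was 13.2 times above the highest dehydrated one. Behind these values stood 2600 to 8811 fragments per control library and 50 to 190 per dehydrated library. The mean was 187 ± 92.0 CPM in control and 3.41 ± 1.88 CPM in dehydrated kidneys (SD, n = 5). The log2 fold change was -5.78 (SE 0.45). In a bulk sample, fewer cells of a type and less RNA per cell cannot be told apart.

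The second gene, as abundant as Scd in control kidneys, was lower by far less. It measured 278, 157, 240, 179 and 116 CPM in control replicates 2, 3, 4, 5 and 6. In dehydrated replicates 1, 2, 4, 5 and 6 it measured 97.3, 82.2, 60.3, 65.4 and 46.8 CPM. The groups came close without overlapping: control replicate 6 stood 1.19 times above dehydrated replicate 1. The mean was 194 ± 64.7 CPM in control and 70.4 ± 19.6 CPM in dehydrated kidneys (SD, n = 5). The log2 fold change was -1.46 (SE 0.23).

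The first gene was barely detected, and only in control kidneys above a few fragments. Control replicates 2, 3, 4, 5 and 6 held 62, 18, 72, 51 and 42 fragments, and dehydrated replicates 1, 2, 4, 5 and 6 held 6, 2, 3, 2 and 3. All dehydrated libraries lay below all control libraries, and 4 of the 5 were at or under 3 fragments. Summed over the libraries of a group, 245 fragments stood against 16. That is a ratio of 15.5 after scaling for depth (95% interval 9.33 to 27.5, exact, covering counting error only). The mean was 1.48 ± 0.565 CPM in control and 0.0973 ± 0.0463 CPM in dehydrated kidneys (SD, n = 5), and the log2 fold change was -3.88 (SE 0.40). This gene passed the filter on low counts through its control libraries alone, so it could be tested only because it was higher there.

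The third gene was also low and showed the smallest difference of the cluster. It had 53, 48, 70, 73 and 50 fragments in control replicates 2, 3, 4, 5 and 6, which correspond to 1.597, 1.56, 1.99, 2.10 and 1.71 CPM. In dehydrated replicates 1, 2, 4, 5 and 6 it had 35, 42, 28, 30 and 23 fragments, or 0.995, 1.27, 0.942, 0.818 and 0.767 CPM. The groups did not overlap, with the lowest control kidney 1.23 times above the highest dehydrated one. The mean was 1.79 ± 0.241 CPM in control and 0.959 ± 0.197 CPM in dehydrated kidneys (SD, n = 5). The log2 fold change was -0.90 (SE 0.17).

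**Figure D1:**
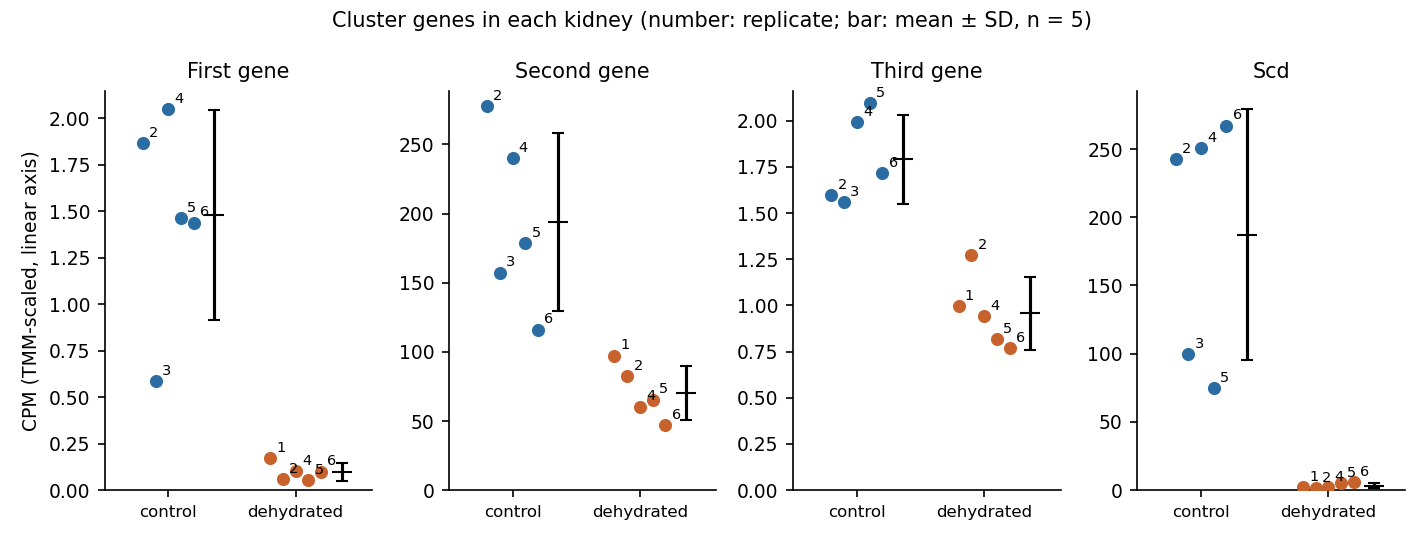
Level of each cluster gene in each kidney, in TMM-scaled CPM on linear axes that start at 0 and differ between panels; points are animals labelled with their replicate number, and bars are the mean ± SD of 5 animals. In every panel the dehydrated points lie below the control points, with the widest separation for Scd (74.7 CPM or more against 5.67 CPM or less) and the narrowest for the second gene (116 against 97.3 CPM).

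In the fit over all genes, all 4 members passed the threshold as lower in dehydrated kidneys (edgeR's quasi-likelihood test, Benjamini-Hochberg adjusted p below 0.05), as did 3.77% of the 15047 tested genes. For all 4 the libraries of the groups did not overlap and the dehydrated ones were lower, which held for 3.48% of tested genes. Since the members were chosen on this contrast, nothing is read from either count. The median log2 fold change of all tested genes was -0.0047. Ordered from the lowest log2 fold change, Scd stood at place 1 and the first gene at place 2 of 15047. The second gene stood at place 26 and the third at place 163. The first gene was in this order only through its control libraries, so nothing is read from its place. Of the 9563 tested genes with a control mean of at least 10 CPM, 5 were more than 4-fold lower. Scd alone was more than 10-fold lower, and the next lowest of them was 6.52-fold lower. This cut used the control mean alone, so it kept genes high only in control kidneys, Scd among them. Genes low in control kidneys were left out, so nothing is read from the place of Scd.

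**Figure D2:**
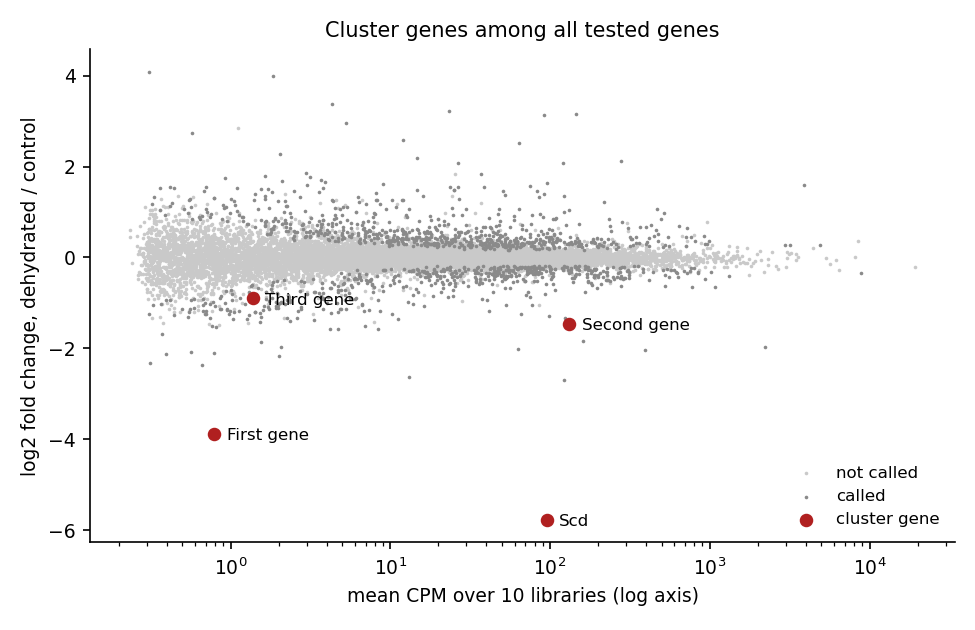
Log2 fold change (dehydrated over control) against mean CPM over 10 libraries (log axis) for the 15047 tested genes, with called genes in dark grey and the 4 cluster genes in red. Scd (-5.78) and the first gene (-3.88) lie below every other gene, while the second gene (-1.46) and the third (-0.90) lie nearer to the other called genes.

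Levels of different genes were compared per kilobase of exon. Such levels depend on the annotated exons, and the longest of the third gene has only 282 bp. Fragments shared by near-identical members may also be lost, so comparisons between members are uncertain. In control kidneys Scd measured 41.8 ± 20.6 and the second gene 38.4 ± 12.8 CPM per kb (SD, n = 5), and their spreads overlapped. These are places 2402 and 2580 among the 15047 tested genes, counted from the highest. The third gene (1.59 ± 0.214 CPM per kb) and the first (0.412 ± 0.157) were at places 12074 and 14014. In dehydrated kidneys the order was different. The second gene led with 13.95 ± 3.89 CPM per kb at place 5757. It was followed by the third gene with 0.851 ± 0.175 and Scd with 0.762 ± 0.420 CPM per kb, at places 13091 and 13267, which did not differ beyond their spread. The first gene, with 0.0270 ± 0.0129 CPM per kb, was at place 15046 of 15047. It was tested through its control libraries alone, so a place near the end follows from the filter. Genes that the filter removed were not ranked.

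The output of the cluster as a whole moved from a mixture to nearly a single gene. Summed over the 4 members it was 384 ± 126 CPM in control (257 to 524) and 74.9 ± 18.5 CPM in dehydrated kidneys (53.3 to 101; SD, n = 5), a 5.13-fold difference. Scd made up 46.7% ± 15.0 of the sum in control kidneys (29.0% to 69.1%) and 5.14% ± 3.75 in dehydrated ones (1.78% to 10.6%). The second gene made up 52.4% ± 14.8 and 93.4% ± 3.80 (SD, n = 5). The first gene held at most 0.570% and the third at most 1.49% of the sum in any library. These shares are of CPM, which is not scaled by exon length, and the third gene has the least exonic sequence. Loss of fragments shared by near-identical members makes the shares uncertain too. In dehydrated kidneys the third gene (0.851 ± 0.175 CPM per kb) and Scd (0.762 ± 0.420) did not differ beyond their spread. Per kilobase, the ratio of Scd to the second gene ran from 0.471 to 2.59 in control kidneys and from 0.0208 to 0.137 in dehydrated kidneys. Of the summed mean CPM lost by all 568 genes called lower, the cluster held 1.67%, of which Scd gave 0.990 and the second gene 0.666 percentage points.

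**Figure D3:**
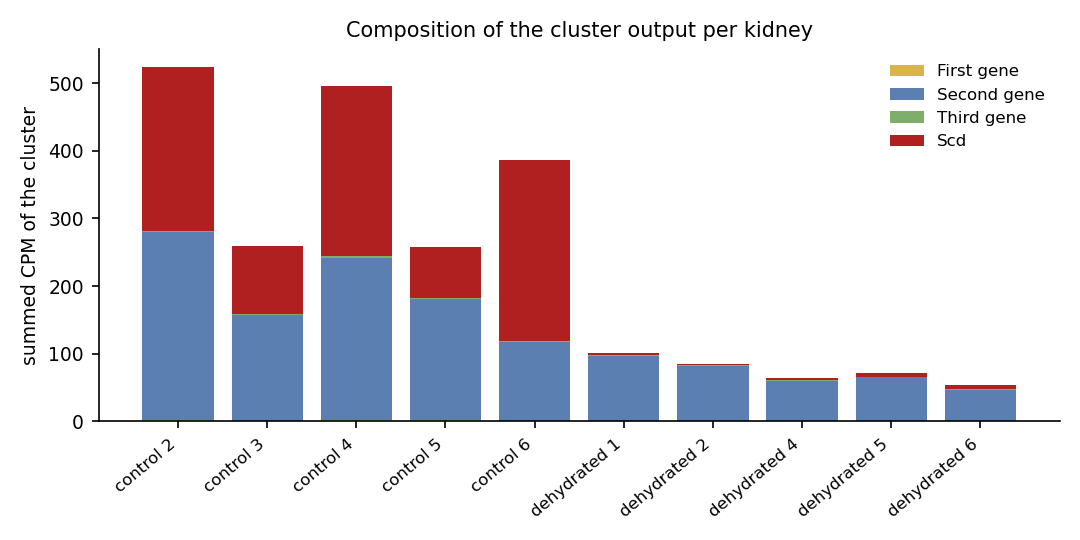
Summed CPM of the cluster in each of the 10 kidneys, stacked by gene. Control bars reach 257 to 524 CPM with a large Scd part, and dehydrated bars reach 53.3 to 101 CPM, almost all of it the second gene.

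Beyond the borders of the cluster the group values lay close together. The borders are the outer ends of the first gene and Scd and were set with this contrast known. The step at the borders is therefore a description. Of the 3 genes with at least 15 fragments on each side, 5 were tested and none passed the threshold, with log2 fold changes between -0.16 (SE 0.066) and 0.29 (SE 0.29). On the near side of the first gene, 8815 bp away, a gene with 47 fragments over all libraries was too low to test, at 0.128 ± 0.0707 CPM in control and 0.157 ± 0.0780 CPM in dehydrated kidneys (SD, n = 5). Beyond Scd, the nearest counted gene lay 95608 bp away and measured 0.675 ± 0.141 and 0.820 ± 0.321 CPM. The abundant gene that follows it (chr1:264298669-264303762, minus strand) measured 310.5 ± 27.0 CPM in control and 316 ± 64.7 CPM in dehydrated kidneys (SD, n = 5). Within 1 Mb on both sides, 31 other genes were tested, with log2 fold changes of -0.40 to 0.45, and 1 passed the threshold, as lower.

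**Figure D4:**
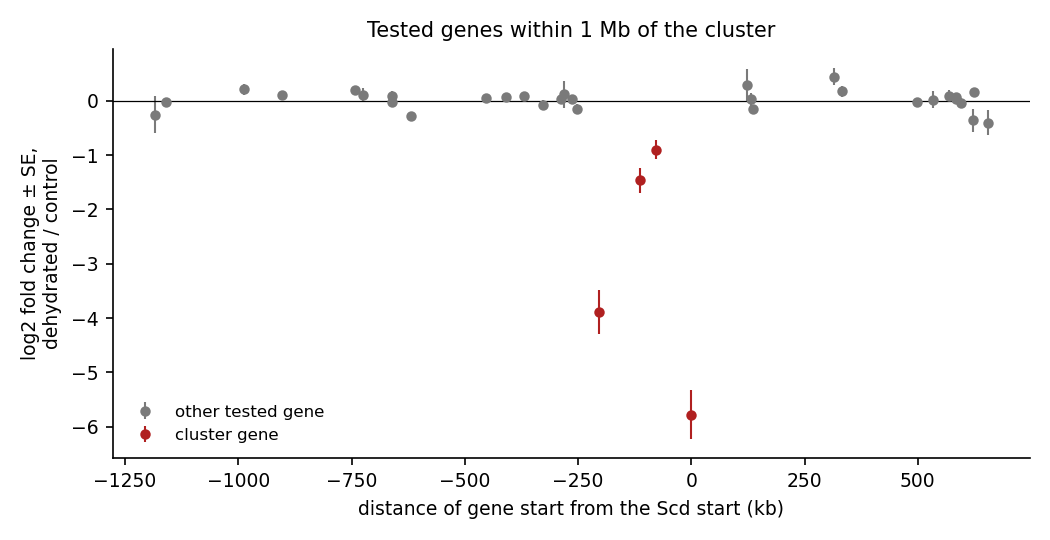
Log2 fold change with its SE for each tested gene within 1 Mb of the cluster, by the distance of its start from the Scd start in kb. The 4 cluster genes, in red, lie between -0.90 and -5.78, and the 31 other genes between -0.40 and 0.45.

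Animals of the same group differed more in these genes than in most. The coefficient of variation of Scd was 49.2% in control and 55.2% in dehydrated kidneys. The median over the 12550 genes whose mean reached 2 CPM was 8.31% in control kidneys and was not computed for dehydrated ones. The biological coefficient of variation that edgeR fitted for Scd, 0.426, was higher than that of 99.2% of tested genes. For the first, the second and the third gene it was 0.312, 0.247 and 0.140, against a median of 0.0984. Among controls, replicates 5 and 3 had 74.7 and 99.7 CPM of Scd, and the other 3 had 243 to 267 CPM. The highest control kidney was 3.58 times the lowest for Scd and 2.39 times for the second gene.

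No common variation of the 2 abundant genes was detected between animals of a group. Control replicate 6 had the most Scd (267 CPM) and the least of the second gene (116 CPM) among controls. Dehydrated replicate 6 likewise had the most Scd (5.67 CPM) and the least of the second gene (46.8 CPM) of its group. With group means removed, Pearson's r of log2 CPM between the 2 genes over 10 libraries was -0.22. Permutation within groups gave a two-sided p = 0.558 (adjusted p = 0.558). Spearman's rho of ranks within groups was -0.50 (permutation p = 0.190, adjusted p = 0.369). Without the 2 libraries farthest from the median of the second gene, r was -0.26. Over the 6 pairs of members r ranged from -0.63 to 0.43, with no adjusted permutation p below 0.369 for r or rho. The lowest r was that between the third gene and Scd (permutation p = 0.069, adjusted p = 0.414). It came to -0.24 without the 2 libraries farthest from the median of the third gene. Group means do not enter these values. With 10 animals only strong relations could be detected. For pairs with the first gene, counting noise is a further limit, since it had 2 to 6 fragments in dehydrated libraries.

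**Figure D5:**
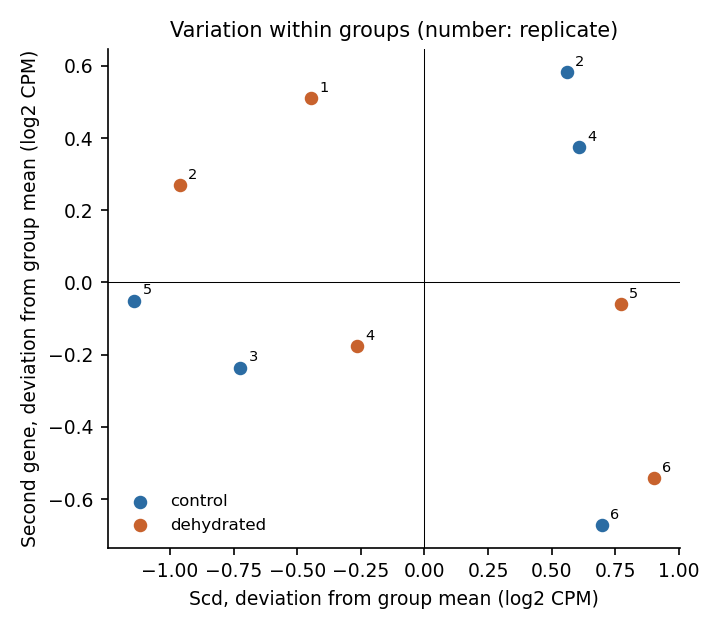
Deviation of the second gene from its group mean against that of Scd, both in log2 CPM, for 5 control and 5 dehydrated kidneys labelled with their replicate number. The points show no common direction (r = -0.22), and both replicates numbered 6 lie at the lower right, with high Scd and low second gene.

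Among the 12548 genes outside the cluster that averaged 2 CPM or more, those whose deviations within groups most resembled those of Scd reached r of 0.91, 0.89 and 0.89 over 10 libraries. They lie on chromosome 6 (55881387 to 56159464), chromosome 1 (218945508 to 218954280) and chromosome 2 (254227523 to 254250415), all on the plus strand. None of the 3 passed the threshold between the groups, with log2 fold changes of 0.03 (SE 0.068), 0.30 (SE 0.11) and -0.17 (SE 0.20). These are the highest of many values and are given as a description. The second gene would stand at place 9264 in the same order.

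The authors' deposited table gives log2 fold changes of -5.78 (SE 0.48) for Scd, -3.93 (SE 0.48) for the first gene, -1.46 (SE 0.28) for the second and -0.90 (SE 0.21) for the third. Library totals were 29454213 to 35898689 fragments, and 3 fragments correspond to 0.0818 to 0.103 CPM. Both libraries numbered 6 bear the other group's letter in their names, while titles and treatment labels agree. Without both libraries 435 genes passed the threshold as lower, the 4 members among them, against 568 genes (3.77% of those tested) with all libraries. The share of tested genes was not computed for the smaller fit. With the libraries numbered 6 exchanged between the groups, 0 genes of the whole table passed the threshold. That setting therefore says nothing particular about the cluster.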

How the data were processed

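Fragments were counted per gene by the authors with featureCounts 1.6.2 on the Ensembl 103 annotation of Rnor 6.0, paired-end and with strand setting 2, per the file headers. No multi-mapping or overlap option is set there, so fragments shared by near-identical desaturase genes may be lost, and counts of such paralogs are uncertain. Per the file headers the reads were trimmed and aligned with Rsubread. The authors also deposited log2 fold changes with standard errors, from DESeq2 according to the submitters' processing notes. The 10 per-library columns of that table were not used. Exonic lengths are other values of the deposited count table.

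Libraries were grouped by title, 5 per group, 1 per animal. Deposited counts were tested with edgeR 4.0.16 (R 4.3.3; TMM scaling, filterByExpr with minimum count 10 and minimum total 15), which kept 15047 of 21311 genes with any count. The SE of a log2 fold change is its size divided by the square root of F. Deviations used log2 CPM with prior count 2, and permutations within groups numbered 100000. The test was checked on simulated counts. Replicate pairs differed beyond counting noise (chi-square per degree of freedom 13.3 to 32.1 in 20 pairs). Alternatives were other scalings and filters, DESeq2 1.42.0, limma 3.58.1, a replicate block and left-out or exchanged libraries. The members, lists and rules were chosen with earlier results of these data known. The rule for named genes took all members, the 3 nearest genes with at least 15 fragments on each side and the 3 genes most like Scd within groups. RefSeq (GRCr8) pairs 0 of its 47357 genes with an Ensembl identifier. The 4 planned pathway lists and 9 kidney and fat cell marker lists, and thus the check of the tissue by its markers, were therefore not analysed here.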

Additional observations from a re-analysis of the deposited data

How the results depend on the processing

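The members were chosen on this contrast, so their calls are a description and not support for it, and the first gene passed the filter through control libraries alone. All 4 stayed lower and past the threshold in the 17 settings that keep the titled groups. These were other scalings, no filter, DESeq2, limma voom, each library left out, the replicate block, and both libraries numbered 6 left out. In the main fit 3.77% of all tested genes passed as lower. Over the 17 settings, 341 (replicate block) to 746 genes (DESeq2) of the whole table did. Their share of tested genes was not computed, so nothing is read from the count of members. The log2 fold changes of the members were -6.02 to -5.59 for Scd, -4.39 to -3.72 for the first gene, -1.63 to -1.30 for the second and -1.02 to -0.84 for the third. With the libraries numbered 6 exchanged, 0 members and 0 genes in all were called by edgeR (1654 genes at an unadjusted p below 0.05). The log2 fold changes were then -1.28 for Scd, -1.81, -1.10 and -0.49, and the log2 ratio of summed CPM was -1.17. An exchange mixes the titled groups by construction. That ratio was -2.36 with all libraries, -2.49 to -2.22 with 1 library left out, and -1.46 without Scd. The correlation of Scd with the second gene within groups ran from -0.43 to -0.021 with 1 library left out. Of all genes, 1275 were called, and 879 to 1382 with 1 library left out. With the replicate number as a block, on the 4 numbers that both groups share, 772 were called (431 higher, 341 lower). All 4 members were among the 341, and the share of tested genes was not computed for that fit. Over the settings with titled groups, no member came nearer to the threshold than the third gene did with this block. Across genes, the deviations of libraries that share a number correlated with r of -0.065 to 0.17, and the numbers have no stated meaning. The planned lists were run under none of these settings. Depth limits the first gene, with 2 to 6 fragments in dehydrated libraries.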
